A study of Mus musculus with 6 samples.

Results

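The mercapturate enzymes are the kidney enzymes that take glutathione conjugates apart and finish them as mercapturic acids, and 10 of their genes were followed in kidneys of cisplatin-treated mice. The genes were chosen by name, by the step they serve, from the 54532 genes of the deposited table. They are Ggt1, Dpep1, Anpep, Kyat1, Kyat3, Nat8, Nat8f1, Nat8f6, Acy1 and Acy3. RNA-sequencing was done on kidney tissue of 3 WT mice and 3 Trpm2-/- mice of the C57BL/6J strain. The mice were labelled as 6 to 8 weeks old, while the methods give an older range for the cisplatin experiments. All 6 mice had received cisplatin at 18 mg/kg, 72 h before the kidneys were taken, so dose and time were the same in both groups, and kidneys without cisplatin were not analysed here. Per the methods, the mice were male, and the Trpm2-/- animals made a TRPM2 protein, a cation channel, that lacked part of its transmembrane region. WT mice came from a supplier and the Trpm2-/- line from another institution, and the sources used here do not say whether they were littermates, so genotype and origin cannot be told apart.

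As background, cells couple electrophilic drugs to glutathione with glutathione S-transferases. At the brush border of the proximal tubule, gamma-glutamyltransferase removes the glutamate and dipeptidases or aminopeptidase N remove the glycine, which leaves a cysteine conjugate. Inside the cell the conjugate has competing fates. Cysteine conjugate beta-lyases can cleave it to a reactive thiol, a route that has been proposed for the toxicity of cisplatin to this segment. N-acetyltransferase 8 can instead acetylate it to a mercapturic acid, which leaves in the urine, and aminoacylases can take the acetyl group off again.

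The acetyltransferase step was the one whose genes share sequence, and this bears on how far their counts can be separated. The Nat8 family lies on chromosome 6, with 9 genes on the minus strand within 227 kb, chr6:85706727-85933379 in GRCm38. The first 120 coding bases of Nat8f6 (chr6:85809046-85809165, minus strand, within 1 exon of the GENCODE M21 gene model) are shown with the same stretch of Nat8f3 (chr6:85761659-85761778), Nat8f7 (chr6:85707737-85707856), Nat8f5 (chr6:85817857-85817976) and Nat8 (chr6:85831030-85831149), because they show which genes a read could have come from. Capitals mark the bases that differ from Nat8f6.

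Nat8f6: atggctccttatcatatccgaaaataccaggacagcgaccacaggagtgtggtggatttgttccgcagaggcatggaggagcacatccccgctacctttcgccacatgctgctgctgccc
Nat8f3: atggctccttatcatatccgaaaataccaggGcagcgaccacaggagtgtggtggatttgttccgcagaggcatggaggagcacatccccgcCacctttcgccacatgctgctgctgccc
Nat8f7: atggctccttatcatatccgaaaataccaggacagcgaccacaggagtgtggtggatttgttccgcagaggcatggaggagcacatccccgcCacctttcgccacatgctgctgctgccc
Nat8f5: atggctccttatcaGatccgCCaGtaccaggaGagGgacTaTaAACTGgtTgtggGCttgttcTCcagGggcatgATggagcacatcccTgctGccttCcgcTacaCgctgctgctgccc
Nat8: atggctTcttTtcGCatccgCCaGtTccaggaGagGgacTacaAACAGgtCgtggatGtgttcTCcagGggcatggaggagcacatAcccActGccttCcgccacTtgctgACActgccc

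In this stretch Nat8f7 differed from Nat8f6 at 1 base, Nat8f3 at 2, Nat8f5 at 26 and Nat8 at 29. Over the whole coding sequence Nat8f6 was 99.3% identical to Nat8f3 and 99.1% to Nat8f7, against 69.9% to Nat8, and Nat8 was 78.9% identical to Nat8f1. Of the 75-base windows in the transcripts of Nat8f6, 58.3% also occurred in another gene, 50.9% in Nat8f3 and 39.8% in Nat8f7. The window length was chosen for this comparison, and the shares depend on it. Nat8f6 also overlaps Nat8f5 on the same strand by 135 exon bases. Its count is therefore uncertain as to which copy gave the reads. Nat8 shared 3.43% of its windows, all with Nat8f1 and the pseudogene Nat8b-ps. Nat8f1 shared 38.0%, of which most came from Tprkb, a gene on the opposite strand that overlaps it by 478 exon bases (28.5% of the windows of Nat8f1). Whether the counting used strand is not given in the sources used here, so reads of Nat8f1 and Tprkb may be mixed. Kyat3 shared 1.71% and overlaps an antisense gene by 264 exon bases, Acy3 shared 3.41%, and the other 5 enzymes shared 0.

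The promoters of Nat8 and Kyat1 are printed because these genes marked the ends of the range of change among the well counted enzymes. RefSeq (GRCm38.p6) gives Nat8 more than 1 start, and the one printed, from 250 bases before the start site to 30 after it, is chr6:85832250-85832529 on the minus strand, upstream of the 5′ end that the deposited table gives. The Kyat1 promoter, over the same window, is chr2:30205818-30206097 on the minus strand. Capitals mark motif matches.

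Nat8: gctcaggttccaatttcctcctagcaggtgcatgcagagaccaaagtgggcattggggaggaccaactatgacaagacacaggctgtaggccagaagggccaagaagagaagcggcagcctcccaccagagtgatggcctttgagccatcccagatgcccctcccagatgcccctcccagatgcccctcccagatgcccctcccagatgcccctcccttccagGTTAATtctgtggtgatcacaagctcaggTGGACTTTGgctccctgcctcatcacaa
Kyat1: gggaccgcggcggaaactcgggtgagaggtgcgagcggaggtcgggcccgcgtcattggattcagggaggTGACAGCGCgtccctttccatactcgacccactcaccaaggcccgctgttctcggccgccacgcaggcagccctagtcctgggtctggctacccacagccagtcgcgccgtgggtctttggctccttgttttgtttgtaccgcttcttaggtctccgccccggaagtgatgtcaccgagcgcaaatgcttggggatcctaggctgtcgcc

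In the Nat8 promoter the HNF1 core motif GTTAAT lay at bases -27 to -22 from the start site and the HNF4 motif CAAAGTCCA, on the other strand, at bases 3 to 11. The other Nat8 promoter in the table, at chr6:85836808-85837107, held none of the motifs searched. HNF1 and HNF4 factors are known for driving proximal tubule genes. All 10 enzymes had an entry in the promoter table. Searched on both strands in 32851 RefSeq promoters of 250 bases before to 50 after the start, GTTAAT was present in 7.10% and CAAAGTCCA in 0.475%, and no other enzyme's promoter held either. Nat8f5, beside Nat8 in the cluster, held GTTAAT at bases -145 to -140. In the Kyat1 promoter the core of the antioxidant response element, TGACNNNGC, lay at bases -180 to -172. This core was present in 12.4% of all promoters, and 3 of the 4 promoters of Ggt1 held it. TATAAA, present in 13.6% of all promoters, was found in Acy3, Nat8f6 and 1 promoter of Ggt1. A match describes the letters only.

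The 6 libraries held 14053307 to 17150089 counted reads, and 15816 genes passed the filter on low counts and were tested. Beside the genotype, the share of reads from the mitochondrial genome was 4.43 to 4.72% in WT and 7.91 to 11.04% in Trpm2-/- kidneys, and Trpm2-/- replicate 4 held more reads of podocyte, endothelial and fibroblast markers than the other libraries. Counts of Trpm2 itself were 5, 5 and 27 in WT and 10, 16 and 20 in Trpm2-/- kidneys; reads from the exons that remain are counted too, so this does not check the genotype. Levels are FPKM, fragments scaled by gene length and library size, as deposited. Differences are edgeR log2 fold changes, Trpm2-/- minus WT, with their standard errors (SE) and p-values of the quasi-likelihood test adjusted by Benjamini-Hochberg over all genes tested. The labels do not say that the kidneys came from separate experiments, so the p-values measure the spread between these mice.

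The question was how the RNA of these enzymes differed between genotypes 72 h after cisplatin. The enzymes were lower in Trpm2-/- kidneys: their summed level was 638, 778 and 943 FPKM in the WT libraries and 263, 309 and 310.4 FPKM in the Trpm2-/- libraries. The estimate was below 0 for 10 of 10 genes and the median was -1.48, where the median of all genes tested was 0.02. At an adjusted p under 0.05, 9 of 10 fell and 0 rose in edgeR. The edgeR background was 12.0% of all genes called in either direction, 7.28% lower and 4.74% higher. DESeq2 called 10 lower and 0 higher, beside 1444 lower and 1095 higher among the 15816 genes tested. In limma-voom it was 9 and 0, beside 1152 and 698. At an unadjusted p under 0.05 edgeR had 10 lower and 0 higher, and the share of all genes at that threshold was not computed. By the threshold that the methods give, an absolute log2 fold change above 1 with an unadjusted p under 0.05, 9 of 10 were lower, beside 4.10% of all genes. The 3 Trpm2-/- libraries lay below the 3 WT libraries for 9 of 10, beside 16.8% of all genes. Kyat1 was the exception in each count of 9. Each count of 9 includes Nat8f6, which passed the filter on low counts only through the WT group, where it is high, and so had to differ; the other 8 reached the filter's level in both groups. In RNA of kidney tissue, fewer proximal tubule cells and less RNA per cell cannot be told apart.

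**Figure D1:**
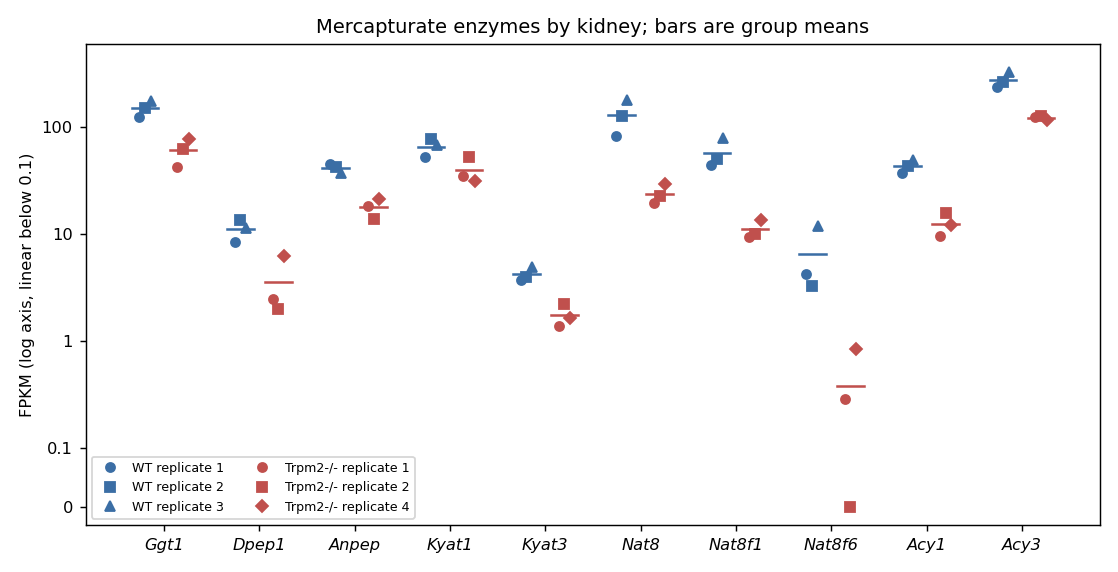
Level of each mercapturate enzyme in each kidney, in FPKM on a log axis that is linear below 0.1, with a point per library and a bar at each group mean (n = 3 per genotype). The genotypes separate for all enzymes except Kyat1, whose Trpm2-/- replicate 2 (53.1 FPKM) lies above WT replicate 1 (52.0 FPKM), and Nat8f6 is at 0 in Trpm2-/- replicate 2.

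The order of the WT levels per length was Acy3, Ggt1, Nat8, Kyat1, Nat8f1, Acy1, Anpep, Dpep1, Nat8f6 and Kyat3, from 276 to 4.198 FPKM on average. The ranges of Ggt1 and Nat8, of Kyat1 and Nat8f1, of Nat8f1 and Acy1, of Acy1 and Anpep, of Dpep1 and Nat8f6, and of Nat8f6 and Kyat3 overlapped, so these neighbours were not ordered beyond the spread between mice. Acy3 ranked 162 among all genes by WT mean FPKM, Ggt1 352 and Nat8 429, while Kyat3 ranked 7689. In Trpm2-/- kidneys the order was Acy3, Ggt1, Kyat1, Nat8, Anpep, Acy1, Nat8f1, Dpep1, Kyat3 and Nat8f6. There the ranges of Ggt1 and Kyat1, of Nat8 and Anpep, of Anpep and Acy1, of Acy1 and Nat8f1, and of Dpep1 and Kyat3 overlapped. These neighbours were not ordered beyond the spread between mice either. WT replicate 3 held the highest WT level of 7 of 10 enzymes and WT replicate 1 the lowest of 8. Among Trpm2-/- libraries replicate 4 was highest for 6 enzymes and replicate 2 for 4.

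**Figure D2:**
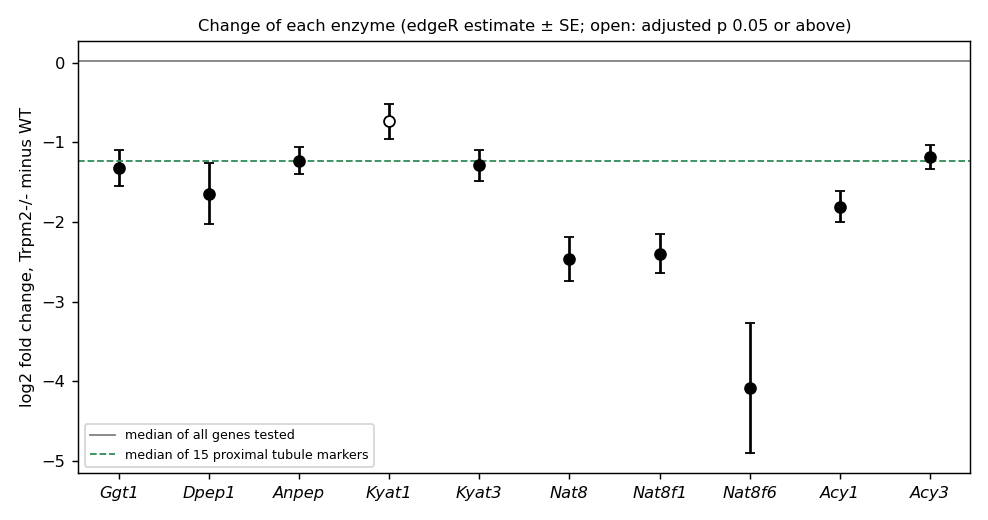
Log2 fold change of each enzyme, Trpm2-/- minus WT, with its standard error from edgeR (3 against 3 kidneys); the grey line is the median of all genes tested (0.02) and the dashed line the median of 15 proximal tubule markers (-1.24). Nat8, Nat8f1 and Nat8f6 sit lowest, Kyat1 highest with an open symbol for an adjusted p of 0.0608, and the others between -1.81 and -1.19.

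Ggt1 (chr10:75561604-75586200, plus strand, 13 exons in its longest coding transcript) encodes gamma-glutamyltransferase 1, the brush border enzyme that opens the pathway. Its levels were 124, 152 and 177 FPKM in WT replicates 1, 2 and 3 and 42.6, 62.5 and 77.7 FPKM in Trpm2-/- replicates 1, 2 and 4. The lowest WT kidney was above the highest Trpm2-/- kidney, and the means were 151 ± 26.4 and 60.9 ± 17.6 FPKM (SD, n = 3 each). The fall was 2.50-fold (log2 fold change -1.32, SE 0.228, edgeR adjusted p = 0.0071).

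The next step takes glycine off and is shared by a dipeptidase and an aminopeptidase. Dpep1 (chr8:123186242-123201812, plus strand, 11 exons) encodes the membrane dipeptidase of the brush border. Its levels were 8.36, 13.4 and 11.3 FPKM in WT and 2.47, 2.00 and 6.21 FPKM in Trpm2-/- replicates 1, 2 and 4, so Trpm2-/- replicate 4 stood above the other Trpm2-/- kidneys but below every WT kidney. Dpep1 fell 3.13-fold (log2 fold change -1.65, SE 0.380, edgeR adjusted p = 0.0234). This call was lost without WT replicate 2 (edgeR adjusted p = 0.0871), without WT replicate 3 (0.0715) and without Trpm2-/- replicate 1 (0.0813). Anpep (chr7:79821803-79861059, minus strand, 20 exons), aminopeptidase N, was at 44.8, 42.1 and 37.5 FPKM in WT and at 18.2, 13.9 and 21.4 FPKM in Trpm2-/- kidneys. The WT kidneys lay close together and the groups were well apart, with a fall of 2.35-fold (log2 fold change -1.23, SE 0.169, edgeR adjusted p = 0.00332).

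The lyase genes differed from each other in level and in the size of their change. Kyat1 (chr2:30185124-30205847, minus strand, 13 exons) encodes kynurenine aminotransferase 1, also known as glutamine transaminase K, which has cysteine conjugate beta-lyase activity. Its levels were 52.0, 77.9 and 67.8 FPKM in WT and 34.95, 53.1 and 31.4 FPKM in Trpm2-/- replicates 1, 2 and 4. The groups overlapped through WT replicate 1 and Trpm2-/- replicate 2, and the means were 65.9 ± 13.0 and 39.8 ± 11.6 FPKM (SD, n = 3 each). The estimate of -0.74 (SE 0.223) did not pass the test (edgeR adjusted p = 0.0608). It passed without WT replicate 1 (edgeR adjusted p = 0.0488), without Trpm2-/- replicate 2 (-1.01, edgeR adjusted p = 0.0162) and in DESeq2 on all 6 kidneys (adjusted p = 0.0121). Kyat3 (chr3:142701051-142746870, plus strand, 14 exons), kynurenine aminotransferase 3, acts on the same class of conjugates and was counted at a far lower level, 3.69, 3.98 and 4.92 FPKM in WT against 1.37, 2.20 and 1.64 FPKM in Trpm2-/- kidneys. All Trpm2-/- kidneys were below all WT kidneys, and Kyat3 fell 2.44-fold (log2 fold change -1.29, SE 0.197, edgeR adjusted p = 0.00462).

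The acetyltransferase genes held the largest changes among the 10 enzymes. Nat8 (chr6:85830388-85832082, minus strand, 2 exons) encodes the cysteine conjugate N-acetyltransferase that makes mercapturic acids. Its levels were 82.6, 126 and 178.5 FPKM in WT replicates 1, 2 and 3 and 19.3, 22.6 and 29.2 FPKM in Trpm2-/- replicates 1, 2 and 4. The WT kidneys were spread widely, yet the lowest of them was above every Trpm2-/- kidney, and the means were 129 ± 48.0 and 23.7 ± 4.995 FPKM (SD, n = 3 each). Nat8 fell 5.50-fold (log2 fold change -2.46, SE 0.275, edgeR adjusted p = 0.0015), the 50th lowest estimate of the 15816 genes tested. Nat8f1 (chr6:85910154-85915687, minus strand, 2 exons), a family member, was at 43.9, 50.2 and 79.1 FPKM in WT and 9.46, 10.1 and 13.7 FPKM in Trpm2-/- kidneys. Its order of libraries was that of Nat8 in both groups, and it fell 5.27-fold (log2 fold change -2.40, SE 0.243, edgeR adjusted p = 0.00126).

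Nat8f6 (chr6:85808024-85820954, minus strand, 3 exons) was far less counted, with 133, 99 and 377 reads in WT and 9, 0 and 26 reads in Trpm2-/- replicates 1, 2 and 4. These reads correspond to 4.24, 3.28 and 11.9 FPKM and to 0.286, 0 and 0.847 FPKM, so WT replicate 3 held more than the other WT kidneys together. The gene passed the filter on low counts through the WT group alone. The estimate was -4.08 (SE 0.818, edgeR adjusted p = 0.0134), and the call was lost without WT replicate 3 (-3.31, edgeR adjusted p = 0.0581) and without Trpm2-/- replicate 1 (-3.91, edgeR adjusted p = 0.0563). The shared sequence of Nat8f6, Nat8f3 and Nat8f7 shown above applies to its value. The reads counted for all 9 genes of the family were also summed, so that the copy to which a counted read was assigned does not matter. How reads that match several copies were counted is not given in the sources used here. The sums were 3921, 4897 and 7539 reads in WT and 1432, 1148 and 1712 reads in Trpm2-/- kidneys. The sum was lower by 1.90 on the log2 scale (log2 fold change -1.90, SE 0.236, edgeR adjusted p = 0.00227).

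The genes of the cluster did not all move together. Besides Nat8, Nat8f1 and Nat8f6, Nat8f5 fell (11.4, 15 and 27.3 FPKM in WT against 2.13, 1.09 and 4.82 FPKM in Trpm2-/- kidneys, log2 fold change -2.75, edgeR adjusted p = 0.00858), and Nat8f3 was called lower at a low level (18, 55 and 64 reads in WT against 13, 7 and 9 reads in Trpm2-/- kidneys, -2.20, edgeR adjusted p = 0.0287). Nat8f3, like Nat8f6, passed the filter only through the WT group, so its call is no support. Nat8f2 and Nat8f4, named after their values were seen, lie between Nat8 and Nat8f1 on the chromosome. Nat8f4 was at 4.58, 6.40 and 4.78 FPKM in WT and 5.69, 4.77 and 5.27 FPKM in Trpm2-/- kidneys, with an estimate of -0.02 (SE 0.177, edgeR adjusted p = 0.969), and the groups overlapped. Nat8f2 had an estimate of -0.56 (SE 0.207, edgeR adjusted p = 0.113). The ratio of Nat8 to Nat8f4 within a library was 18.0, 19.7 and 37.3 in WT and 3.40, 4.73 and 5.53 in Trpm2-/- kidneys, a description of a pair chosen for its difference. Nat8f7 and Nat8b-ps had too few reads to be tested.

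**Figure D3:**
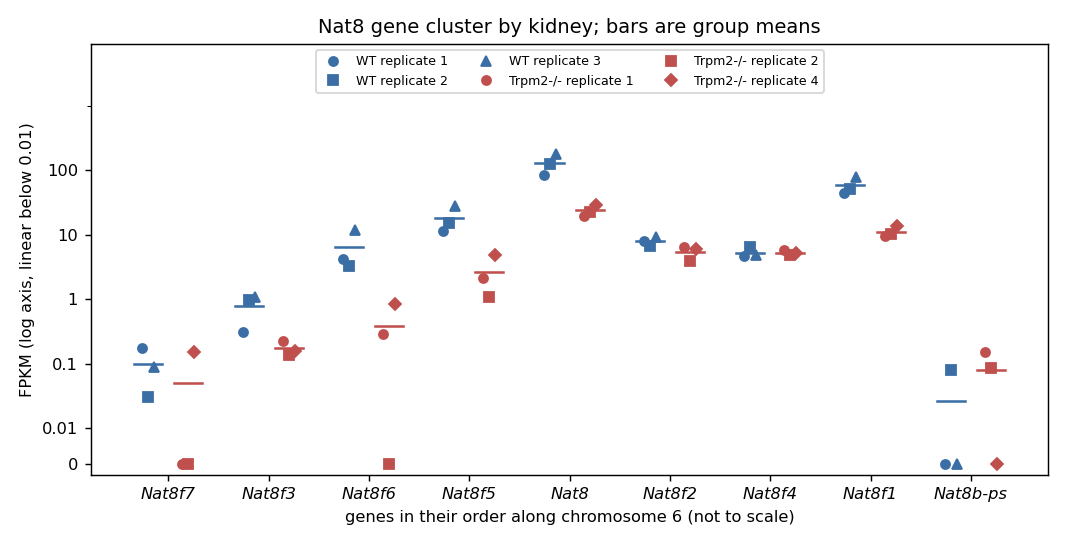
FPKM of the 9 genes of the Nat8 cluster in each kidney, in their order along chromosome 6 and not to scale, on a log axis that is linear below 0.01, with bars at the group means. Nat8, Nat8f1, Nat8f5, Nat8f6 and Nat8f3 are lower in Trpm2-/- kidneys, while the points of Nat8f4 overlap between genotypes (4.58 to 6.40 FPKM in WT, 4.77 to 5.69 FPKM in Trpm2-/-).

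The aminoacylases, which remove acetyl groups from mercapturic acids and other N-acetylated amino acids, fell by unequal amounts. Acy1 (chr9:106432981-106438319, minus strand, 15 exons), the broad aminoacylase of the cytosol, was at 37.3, 43.6 and 49.2 FPKM in WT and 9.54, 15.6 and 12.2 FPKM in Trpm2-/- replicates 1, 2 and 4. The groups were far apart, and Acy1 fell 3.51-fold (log2 fold change -1.81, SE 0.195, edgeR adjusted p = 0.0015). Acy3 (chr19:3986661-3990007, plus strand, 6 exons), an aminoacylase that prefers aromatic mercapturic acids, had the highest level of the 10 enzymes, 237, 266 and 326 FPKM in WT and 125, 127 and 116 FPKM in Trpm2-/- kidneys. The Trpm2-/- kidneys lay within a narrow band below every WT kidney, and Acy3 fell 2.27-fold (log2 fold change -1.19, SE 0.156, edgeR adjusted p = 0.00294).

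Enzymes of the same step were then compared within each library, which removes differences in depth. The ratio of Acy1 to Acy3 was 0.157, 0.164 and 0.151 in WT and 0.0764, 0.123 and 0.105 in Trpm2-/- kidneys. It was lower in every Trpm2-/- kidney, by 0.66 on average on the log2 scale (log2 difference -0.66, exact two-sided permutation test p = 0.1, the smallest that 3 against 3 allows, and 0.3 adjusted over 3 ratios). The ratio of Kyat1 to Kyat3 was 14.1, 19.6 and 13.8 in WT and 25.6, 24.2 and 19.2 in Trpm2-/- kidneys, and the groups overlapped (log2 difference 0.55, exact permutation p = 0.2, adjusted 0.3). The ratio of Nat8f1 to Nat8 was 0.531, 0.398 and 0.443 in WT and 0.489, 0.445 and 0.468 in Trpm2-/- kidneys, a log2 difference of 0.04 (exact permutation p = 0.8, adjusted 0.8). The Trpm2-/- values of this last ratio fell inside the WT range.

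The background above places the pathway in the proximal tubule, though RNA of kidney tissue does not show which cells expressed each enzyme. The enzyme levels were also set against 15 markers of this segment in the same library. These markers were themselves lower in Trpm2-/- kidneys: 12 of 15 fell and 0 rose, with a median log2 fold change of -1.24, a summed level of 1562 to 2026 FPKM in WT and 690.8 to 806 FPKM in Trpm2-/- kidneys, and none at 0 in any library. Among the 12 called were Slc34a1, the phosphate transporter (-2.73, edgeR adjusted p = 0.00391), the endocytic receptor Cubn (-1.40, 0.00401), the glucose transporter Slc5a2 (-1.24, 0.00402) and the urea cycle enzyme Ass1 (-1.21, 0.00385). The estimate of Slc34a1 was below those of Nat8 (-2.46) and Nat8f1 (-2.40). The 3 not called, named after their values were seen, were Pdzk1 (-0.87, edgeR adjusted p = 0.0551), Hnf4a (-0.49, 0.135) and Slc4a4 (0.035, 0.96). The geometric mean of the markers was 58.0, 61.6 and 69.0 FPKM in WT and 26.8, 18.6 and 28.8 FPKM in Trpm2-/- replicates 1, 2 and 4. Relative to it, Nat8 was at 1.42, 2.05 and 2.59 times the marker mean in WT and 0.721, 1.21 and 1.01 times in Trpm2-/- kidneys. Nat8f1 was at 0.756, 0.815 and 1.15 times in WT and 0.353, 0.540 and 0.473 times in Trpm2-/- kidneys. For both genes every Trpm2-/- kidney was below every WT kidney, with log2 differences of -1.03 and -0.99 (exact two-sided permutation p = 0.1 for each, the smallest possible, and 0.45 adjusted over 9 ratios).

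The other ratios overlapped between genotypes. The log2 differences were 0.03 for Ggt1, 0.13 for Anpep, 0.07 for Kyat3, 0.21 for Acy3 and 0.62 for Kyat1, and they were -0.43 for Dpep1 and -0.45 for Acy1, with exact permutation p from 0.2 to 1. Trpm2-/- replicate 2, which had the lowest marker mean, held the highest ratio of its group for each of the 9 enzymes except Dpep1. Nat8f6 has no ratio in that library, where it was at 0, and with 0.1 FPKM added its log2 difference was -2.72 (exact permutation p = 0.1). The part of a loss of proximal tubule RNA in the lower levels of the enzymes was not tested beyond these ratios.

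**Figure D4:**
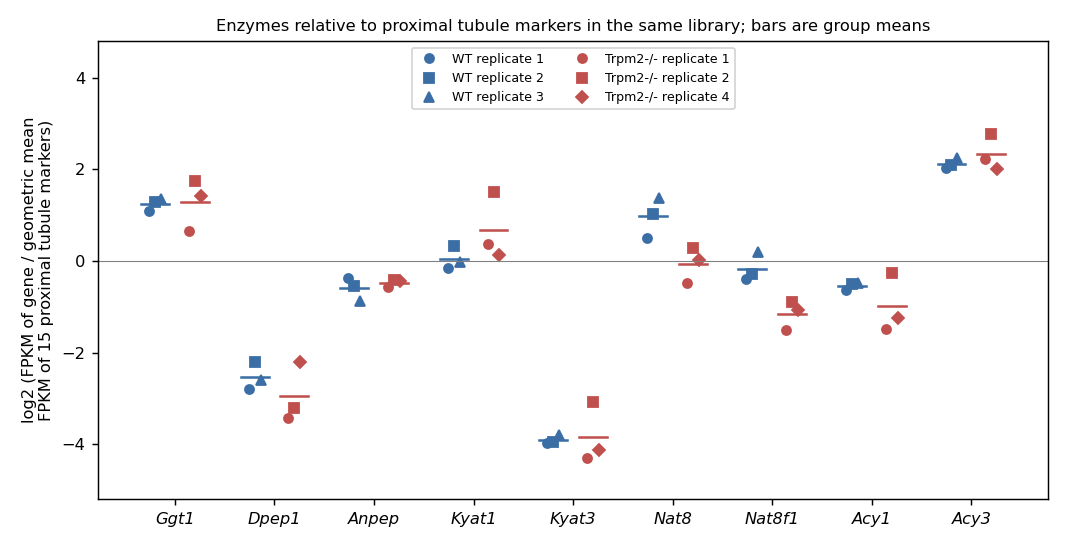
Log2 ratio of each enzyme's FPKM to the geometric mean FPKM of 15 proximal tubule markers in the same library, with bars at the group means (n = 3 per genotype). Nat8 and Nat8f1 are lower in every Trpm2-/- kidney than in any WT kidney (differences of -1.03 and -0.99), and the groups of the other 7 overlap; Nat8f6 is left out because it is at 0 in 1 library.

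Upstream of the 10 enzymes, the glutathione S-transferases, which attach glutathione, had 14 of 21 tested genes lower and 0 higher, with a median of -0.74. For this list, the other lists of the pathway, the brush border peptidases and the proximal tubule markers, the count of higher genes was 0 also at an unadjusted p under 0.05, in DESeq2 and in limma-voom. The summed level of the transferases was 2519 to 3111 FPKM in WT and 1424 to 1554 FPKM in Trpm2-/- kidneys. Gstk1, the mitochondrial and peroxisomal class, fell most among the 4 with the smallest p (-1.93, edgeR adjusted p = 0.00152), and Gsta2, Gsta3 and Gstz1 fell by 1.47, 1.44 and 1.23 on the log2 scale. Of the genes that make and turn over glutathione, 2 of 8 fell and 0 rose, with a median of -0.26. These were Oplah, 5-oxoprolinase, which acts after gamma-glutamyltransferase (-1.05, edgeR adjusted p = 0.00323), and Gss, glutathione synthetase (-0.55, 0.0439). Ggct and Chac1, which release 5-oxoproline, had estimates of -0.46 and 0.70 and did not pass.

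Relatives of the 10 enzymes were lower for 4 of 8 tested and higher for 0, with Nat8f3 tested only through the WT group. Beside Nat8f5 and Nat8f3 these were Aspa, the aspartoacylase related to Acy3 (-1.90, edgeR adjusted p = 0.00261), and Ggt6, a gamma-glutamyltransferase relative (-1.25, 0.0105). Ggt6 was at 5.71, 10.3 and 8.09 FPKM in WT and 3.44, 3.29 and 3.50 FPKM in Trpm2-/- kidneys, far below Ggt1. Other enzymes that act on cysteinylglycine or cysteine conjugates were lower for 8 of 12 tested and higher for 0, with a median of -0.84. They included Agxt2 and Aadat, aminotransferases with activity toward cysteine conjugates, at -1.42 and -1.74, and the methyltransferases Mettl7a1 and Mettl7b at -1.04 and -0.96. Got1 and Got2, aminotransferases of the same list named after their values were seen, were not called. Their estimates were 0.06 and -0.04 (edgeR adjusted p = 0.87 and 0.893).

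Anpep and Dpep1 sit in the brush border with other peptidases, of which 4 of 8 fell and 0 rose, with a median of -0.67. Mep1a, a meprin subunit, was at 214 to 335 FPKM in WT and 73.0 to 95.0 FPKM in Trpm2-/- kidneys (-1.72, edgeR adjusted p = 0.00184). Mep1b and the aminopeptidase Xpnpep2 were at -2.68 and -2.71; Xpnpep2 reached the filter's level in 3 WT and 2 Trpm2-/- kidneys. Each of these lists can be read against the 7.28% of all genes called lower.

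**Figure D5:**
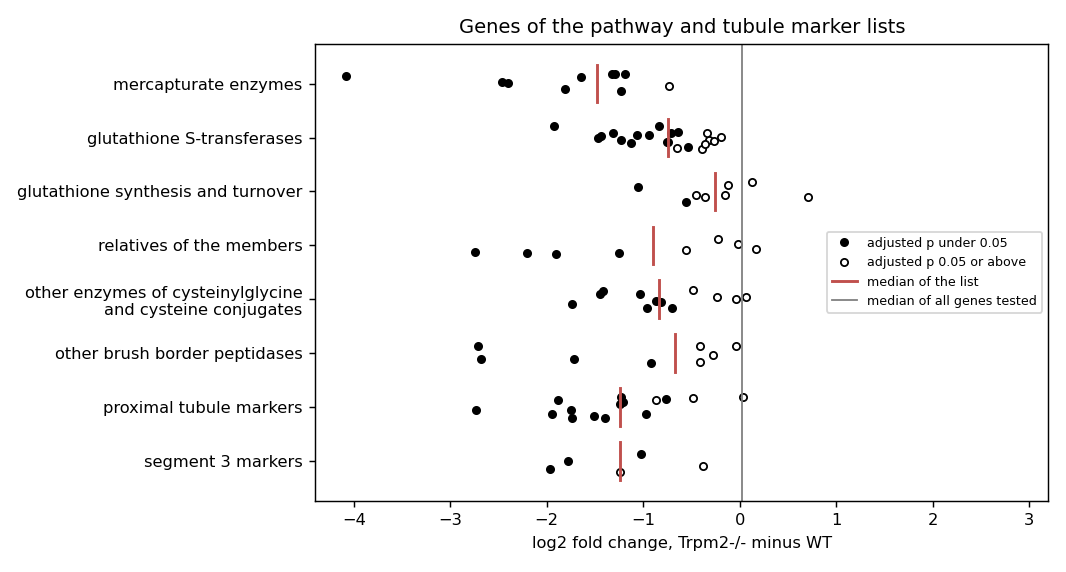
Log2 fold change of every tested gene, Trpm2-/- minus WT, in the mercapturate enzymes, the pathway lists and the proximal tubule marker lists; filled points have an edgeR adjusted p under 0.05, red bars are list medians and the grey line is the median of all genes tested. List medians run from -1.48 for the mercapturate enzymes to -0.26 for glutathione synthesis and turnover.

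Markers of other kidney cells were counted beside these results. Among all 15816 genes tested, edgeR called 7.28% lower and 4.74% higher, and DESeq2 called 1444 lower and 1095 higher. Counts at an unadjusted p have no share of all genes to be read against. Markers of segment 3 of the proximal tubule were lower for 3 of 5 (median -1.24), of the thick ascending limb for 1 of 4 and of collecting duct principal cells for 2 of 4 tested, with 0 higher, also at an unadjusted p and in DESeq2. Of the 3 tested distal convoluted tubule markers and the 5 intercalated cell markers, 0 were called in edgeR; at an unadjusted p under 0.05 it was 1 higher and 1 lower, and DESeq2 called 0 and 1 lower. Markers of injured tubules were higher for 2 of 8 and lower for 0: Sox9 (1.16, edgeR adjusted p = 0.0115) and Krt20 (0.79, 0.0189), while Havcr1, which encodes Kim-1, had an estimate of 0.51 (0.0747). At an unadjusted p under 0.05 and in DESeq2, 4 of the 8 were higher. Of 5 markers each, 0 podocyte, endothelial or fibroblast markers were called in edgeR, and 3, 0 and 0 were higher at an unadjusted p under 0.05; DESeq2 called 1 podocyte marker higher. The summed levels of these markers stood apart in Trpm2-/- replicate 4, at 81.4, 26.6 and 16.9 FPKM, where the other 5 libraries reached at most 26.6, 11.2 and 9.84 FPKM. Without that library 9 of 10 mercapturate enzymes were called lower, beside 1031 of all 16251 genes tested. Leukocyte markers were lower for 1 of 8 tested and higher for 0 in edgeR, against 2 lower and 2 higher at an unadjusted p under 0.05, 2 and 0 in DESeq2 and 0 of either in limma-voom. The 1 called was C1qa (-2.03, edgeR adjusted p = 0.0401), while Lyz2 and Ptprc had estimates of 1.35 and 0.76 and did not pass (0.0911 and 0.164). Urothelial markers summed to 25.8 FPKM in WT replicate 1 and to 2.26 and 5.63 FPKM in WT replicates 2 and 3. In Trpm2-/- kidneys they summed to 0.5445 to 1.28 FPKM. Of 2 tested, 1 was lower and 0 higher in edgeR, against 2 and 0 in DESeq2 and 0 of either in limma-voom. The 1 called in edgeR passed the filter on low counts only through the WT group, so its call is no support. Without WT replicate 1, 10 of 10 enzymes were called lower, beside 957 of all 16375 genes tested. The part of these other cells and of the mitochondrial share in the levels of the enzymes was not tested. With the mitochondrial genome left out, 9 of 10 enzymes were called lower, beside 1121 of all 15801 genes tested.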

How the data were processed

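RNA was isolated with Trizol and sequenced on an Illumina HiSeq instrument per the methods. The authors deposited 1 table of gene counts, the whole numbers of reads per gene without normalization, and 1 table of FPKM, which the authors made from these counts, gene length and a library total. The submitters' processing notes name HISAT2, StringTie and mm9 without roles, but 98.3% of the genes matched to GENCODE M21 have the GRCm38 start and end, so GRCm38 positions are given. Strandedness and the counting tool are not given in the sources used here. Without strand, reads of overlapping genes cannot be told apart.

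Counts were tested in edgeR 4.0.16 (R 4.3.3) with filterByExpr (minimum count 10), TMM and a two-sided quasi-likelihood test on genotype, Benjamini-Hochberg adjusted over 15816 genes; the script was tested on simulated data. DESeq2 1.42.0 and limma 3.58.1 were alternatives. Ratios of FPKM within a library were compared by exact permutation of the samples (scipy 1.17.1). Replicates differed by more than counting noise. The named genes were the 10 enzymes, up to 4 genes with the smallest p in each list, and Trpm2, unless stated; 1 gene that the rule names is not reported here. The enzymes, lists and tests were chosen with earlier results of these data known. Depth was 14053307 to 17150089 reads per library, and the samples, 3 per group, were grouped by the genotype label.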

Additional observations from a re-analysis of the deposited data

How the results depend on the processing

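Under the 19 alternatives the number of enzymes called lower stayed within 1.5 times of 9 except for limma on log2(FPKM + 1) without a filter, where it was 5 (Ggt1, Dpep1, Kyat3 and Nat8f6 no longer passed). Leaving out 1 kidney gave 7 to 10, with 7 without WT replicate 3 (beside 470 lower over all genes) and without Trpm2-/- replicate 1 (beside 848). By the threshold of the methods it was 9 to 10 with 1 kidney left out. With the reads of the Nat8 family summed into 1 feature, both counts were 7, the sum included, and Kyat1 did not pass. In the same limma fit the lower calls were 7 for glutathione S-transferases, 1 for glutathione synthesis, 1 for relatives, 2 for other conjugate enzymes and 2 for brush border peptidases. Upper quartile normalization gave 1 lower for glutathione synthesis, and summing the Nat8 family gave 2 lower relatives. With 1 kidney left out, the lower calls ran from 8 to 12 for glutathione S-transferases (8 without WT replicate 2 or 3, 9 without Trpm2-/- replicate 4), from 1 to 2 for glutathione synthesis, from 2 to 4 for relatives (2 without WT replicate 2) and from 3 to 8 for other conjugate enzymes (3 without WT replicate 3, 5 without WT replicate 2), and the higher calls for glutathione synthesis from 0 to 1 (1 without Trpm2-/- replicate 4). The log2 ratio to the proximal tubule markers changed sign with 1 kidney left out for Ggt1 (-0.204 to 0.337), Anpep (-0.013 to 0.241), Kyat3 (-0.306 to 0.30) and Acy3 (-0.012 to 0.365), as did that of Nat8f1 to Nat8 (-0.054 to 0.155). The causes were not tested.

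Replicate numbers 1 and 2 appear in both genotypes. The deviations of these same-numbered kidneys from their group means correlated at 0.06 and -0.01, and those of differently numbered kidneys at -0.25 to 0.22. With so few pairs, these values cannot show whether the numbers mark a pairing. With the replicate block, 661 genes were lower and 341 higher in place of 1152 and 750, 9 enzymes were lower, and the lower calls were 7 for glutathione S-transferases and 1 for glutathione synthesis. WT replicate 3 and Trpm2-/- replicate 4 have no same-numbered kidney. The block fit therefore takes the genotype difference from replicates 1 and 2 of each group, not from all 6 kidneys. Over all genes, limma without a filter called 405 lower and 105 higher, DESeq2 called 1444 and 1095, and leaving out WT replicate 2 or 3 gave 521 and 176 or 470 and 160. With 3 kidneys a group no exact test of a ratio can go below 0.1, and reads of Nat8f6 limit its estimate.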

Other observations

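The ratios of lyase to acetyltransferase genes were higher in each Trpm2-/- kidney than in any WT kidney for the 3 pairs computed. These ratios were chosen after the values were seen and are given as a description, with no test. The ratio of Kyat1 to Nat8 was 0.630, 0.617 and 0.380 in WT replicates 1, 2 and 3 and 1.81, 2.35 and 1.08 in Trpm2-/- replicates 1, 2 and 4. Kyat1 was thus below Nat8 per length in each WT kidney and above it in each Trpm2-/- kidney, with a 3.14-fold difference between the mean log ratios. The ratio of Kyat1 to Nat8f1 was 1.19, 1.55 and 0.857 in WT and 3.69, 5.28 and 2.30 in Trpm2-/- kidneys. The ratio of Kyat3 to Nat8 was 0.0447, 0.0315 and 0.0276 in WT and 0.0706, 0.0971 and 0.0562 in Trpm2-/- kidneys. In all 3 pairs both genes were lower in Trpm2-/- kidneys on average, and the acetyltransferase was the lower of the pair relative to WT. RNA ratios do not measure enzyme activity or the amount of conjugate, which were not measured here.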
